A study of Mus musculus with 18 samples.

Results

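The 10 genes described here are the mesenchymal transcription factors Twist1, Twist2, Prrx1, Prrx2, Msx1, Msx2, Alx1, Alx4, Osr1 and Osr2. They were taken by symbol from the gene tables of mouse embryonic fibroblasts (MEFs, primary connective tissue cells grown from embryos) and of liver. All 10 were listed in both tables, among 21959 genes in MEFs and 51826 genes in liver. The study asked what loss of repeat B of Xist, the non-coding RNA that silences an X chromosome in female cells, does to gene expression. RNA-seq counts were analysed from 3 RepB-/- and 3 WT libraries of each tissue. RepB-/- denotes mice described as homozygous for a CRISPR/Cas9 deletion of the repeat in the ICR background, and WT mice carry none. The labels give the MEF libraries as primary MEFs with the source Tail, and they state neither sex nor age. Whether the libraries of a group came from separate animals or cultures is not given, so p-values measure the spread between these samples, which may be technical.

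Twist1 and Twist2 are basic helix-loop-helix (bHLH) proteins. They bind DNA at E-boxes, usually as dimers with E proteins such as Tcf3, and Id proteins sequester those partners. Prrx1, Prrx2, Msx1, Msx2, Alx1 and Alx4 carry a homeodomain, which binds AT-rich sites with a TAAT core, and Osr1 and Osr2 are zinc finger proteins. In the embryo these factors pattern the mesenchyme of the face, limbs and skull, where the Msx genes respond to BMP signals, and cultured fibroblasts keep part of that expression.

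The 10 genes form 5 pairs of paralogs, and reads of a pair could be exchanged where the copies match. The most similar 180-base stretch of coding sequence is shown for the Twist and Prrx pairs, from GENCODE transcripts of GRCm38, with the bases that differ between the paralogs in capitals. Both pairs held genes with a genotype difference in MEFs, as did the Msx pair, whose stretch is not shown. The Twist stretch lies over the bHLH-coding part, and the Prrx stretch over the homeobox.
Twist1 coding bases 321 to 500: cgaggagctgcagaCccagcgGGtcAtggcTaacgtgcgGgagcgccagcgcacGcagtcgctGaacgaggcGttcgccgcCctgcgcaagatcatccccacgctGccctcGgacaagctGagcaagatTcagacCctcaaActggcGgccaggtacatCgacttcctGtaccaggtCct
Twist2 coding bases 183 to 362: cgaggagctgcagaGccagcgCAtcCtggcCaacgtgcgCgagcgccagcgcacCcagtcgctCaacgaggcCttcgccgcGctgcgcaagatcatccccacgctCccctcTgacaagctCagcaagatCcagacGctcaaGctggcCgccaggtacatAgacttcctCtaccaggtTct
Prrx1 coding bases 293 to 472: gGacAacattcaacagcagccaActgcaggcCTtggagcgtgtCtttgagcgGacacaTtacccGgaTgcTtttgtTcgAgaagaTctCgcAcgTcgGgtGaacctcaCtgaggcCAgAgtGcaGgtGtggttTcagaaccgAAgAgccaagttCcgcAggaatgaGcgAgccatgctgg
Prrx2 coding bases 305 to 484: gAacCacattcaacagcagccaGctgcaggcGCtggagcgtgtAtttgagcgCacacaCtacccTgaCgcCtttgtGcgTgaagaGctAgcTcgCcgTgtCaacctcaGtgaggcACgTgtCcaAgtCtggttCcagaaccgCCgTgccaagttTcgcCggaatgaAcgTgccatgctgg

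Twist1 and Twist2 were identical at 160 of these 180 bases (88.9%) and Prrx1 and Prrx2 at 146 (81.1%). Over the aligned coding sequence, identity was 83.5% for Twist, 72.6% for Msx, 69.6% for Osr, 68.9% for Prrx and 65.2% for Alx. The longest run without a difference was 23 bases, in Twist and in Osr, and no pair shared a stretch of 150 bases. A read of that length within the coding sequence of the transcripts compared therefore differed between paralogs in every pair. Non-coding parts were not compared. Read length after trimming and the handling of reads that match both copies are not given in the sources used here. Exchange of reads was not tested.

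Promoters of 6 of the 10 genes matched the RefSeq table of GRCm38.p6, which gives 300 bases around each start, mostly upstream. Those of the 5 genes called in MEFs are shown, since these genes moved in both directions. Capitals mark E-boxes (CANNTG), the homeodomain-type site TAATTA and the TATA-type site TATAAA, searched on both strands.
Twist1 promoter, chr12:33957421-33957720, plus strand: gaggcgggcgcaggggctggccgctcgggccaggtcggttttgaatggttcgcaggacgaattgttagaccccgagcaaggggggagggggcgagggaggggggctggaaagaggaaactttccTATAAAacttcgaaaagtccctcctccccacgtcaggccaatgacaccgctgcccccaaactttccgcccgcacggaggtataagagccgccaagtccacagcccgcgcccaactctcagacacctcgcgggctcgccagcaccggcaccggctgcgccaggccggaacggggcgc
Twist2 promoter, chr1:91801211-91801510, plus strand: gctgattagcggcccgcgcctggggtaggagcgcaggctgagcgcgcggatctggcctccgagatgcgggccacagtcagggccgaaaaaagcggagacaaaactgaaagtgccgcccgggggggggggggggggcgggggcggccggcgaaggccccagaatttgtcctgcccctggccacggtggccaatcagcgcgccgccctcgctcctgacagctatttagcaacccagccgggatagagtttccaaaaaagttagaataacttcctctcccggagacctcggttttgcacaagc
Prrx1 promoter, chr1:163313601-163313900, minus strand: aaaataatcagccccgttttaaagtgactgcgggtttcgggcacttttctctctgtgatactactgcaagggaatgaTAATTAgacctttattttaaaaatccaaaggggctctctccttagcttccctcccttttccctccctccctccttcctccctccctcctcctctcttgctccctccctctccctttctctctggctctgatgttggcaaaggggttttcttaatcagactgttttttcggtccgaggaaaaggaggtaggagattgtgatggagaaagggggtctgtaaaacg
Msx1 promoter, chr5:37824536-37824835, minus strand: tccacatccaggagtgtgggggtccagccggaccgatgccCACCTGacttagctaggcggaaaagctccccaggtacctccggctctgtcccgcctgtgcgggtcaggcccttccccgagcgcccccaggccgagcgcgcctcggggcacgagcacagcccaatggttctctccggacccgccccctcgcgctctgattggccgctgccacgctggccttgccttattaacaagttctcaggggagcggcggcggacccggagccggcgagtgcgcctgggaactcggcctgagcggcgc
Msx2 promoter, chr13:53472731-53473030, minus strand: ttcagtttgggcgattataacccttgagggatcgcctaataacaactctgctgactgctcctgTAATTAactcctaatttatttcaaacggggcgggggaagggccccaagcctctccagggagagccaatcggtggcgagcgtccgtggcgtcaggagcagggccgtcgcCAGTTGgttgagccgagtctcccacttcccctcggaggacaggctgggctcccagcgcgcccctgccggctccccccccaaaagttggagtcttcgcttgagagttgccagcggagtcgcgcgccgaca

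An E-box was found in the Msx1 and Msx2 windows, where 72.3% of all 32851 promoters hold one. TAATTA was found in the Prrx1 and Msx2 windows, against 5.29% of all promoters, and TATAAA in the Twist1 window, against 13.6%. Prrx1 stood apart in base composition, with 6 CG dinucleotides, while Twist1 had 27, Twist2 25, Msx1 29 and Msx2 22, and the median of all promoters was 7.0. The genes lie on separate chromosomes apart from the pairs Twist1 and Osr1 on chromosome 12, Twist2 and Prrx1 on chromosome 1, and Prrx2 and Alx4 on chromosome 2.

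Depth was 20005541 to 20587556 counts in the RepB-/- MEF libraries and 11540344 to 16347806 in the WT MEF libraries. Liver libraries held 37682201 to 51542709 counts. Xist, the targeted gene, had 323 to 558 CPM (counts scaled by depth with TMM, the trimmed mean of M-values) in WT liver, and it was not analysed here in MEFs. Counts over the whole gene do not test the deletion, which removes only a part of it. In liver, RepB-/- replicate 2 had 0.0794 CPM of Xist and a summed 86.2 CPM of 4 Y-linked genes, against at most 0.0292 CPM of the latter in the other 5 libraries. By these genes that library was male-like, in which case a deletion in the X-linked Xist would be hemizygous rather than homozygous. The liver comparison may therefore mix sexes within RepB-/-. Replicate 1 of both liver genotypes also stood apart, with summed fetal liver markers (Afp, H19, Igf2, Dlk1 and Gpc3) at 5970 CPM in RepB-/- and 4753 CPM in WT, against 4.50 to 20.2 CPM in the other 4. Fibroblast markers were abundant in all MEF libraries, at 29330 to 35310 summed CPM in RepB-/- and 20430 to 25280 in WT.

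In WT MEFs the 10 genes spanned a wide range of levels per length. Mean FPKM (fragments scaled by transcript length and depth, deposited by the authors) was 66.9 ± 3.39 (SD, n = 3) for Prrx2, 34.5 ± 2.75 for Twist1, 25.6 ± 2.43 for Prrx1 and 15.5 ± 2.21 for Osr1. Msx1 followed at 5.26 ± 1.06 FPKM, Msx2 at 1.31 ± 0.231, Osr2 at 1.15 ± 0.559 and Twist2 at 1.00 ± 0.123. Alx4, at 0.345 ± 0.0233 FPKM, and Alx1, at 0.127 ± 0.0317, were lowest. Neighbours in this order did not overlap between WT libraries, except that Osr2 overlapped with Msx2 and with Twist2. The Twist, Osr and Msx pairs each had a clearly higher member, both Prrx genes were abundant and both Alx genes were scarce.

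In MEFs, 5 of the 10 genes differed between genotypes at an adjusted p under 0.05. Prrx1 and Twist1, which were among the abundant members, were modestly higher in RepB-/-. Twist2, Msx1 and Msx2 were lower, with the largest log2 differences in the scarce Twist2 and Msx2. Of 13306 genes tested in MEFs, 39.1% were called, with 19.4% higher and 19.7% lower, so 5 called among 9 tested members is read against that share. The members' median log2 fold change was -0.36, with 5 below 0 and 4 above, against 3e-04 over all genes tested. Without the filter on low counts the medians were -0.34 and -0.12. The comparison was not matched on level, so it does not show that the members lean lower than genes of like level. Alx1 was too low for the filter on counts.

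**Figure D1:**
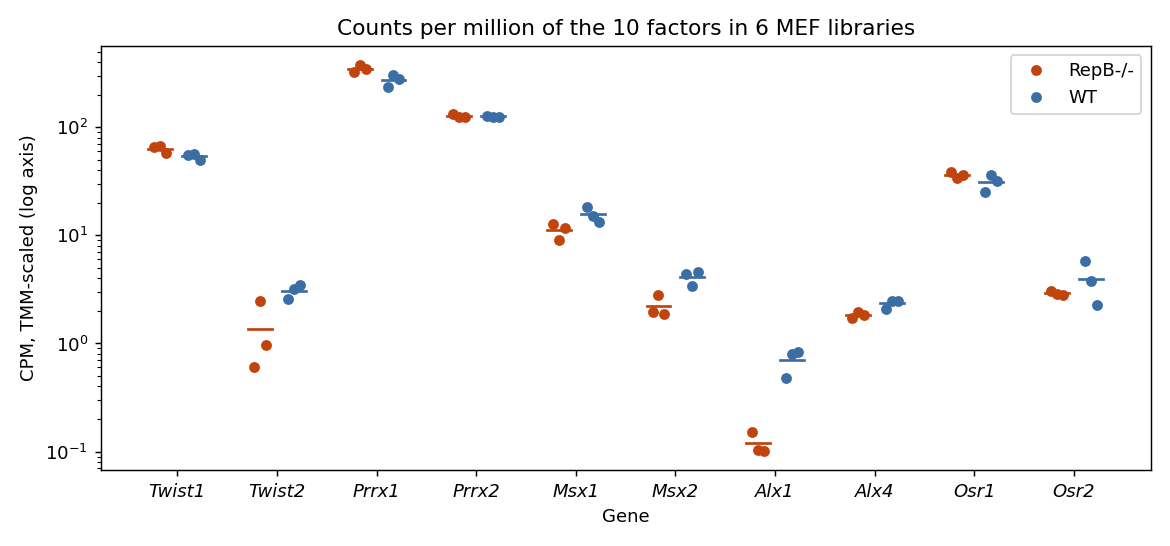
CPM of the 10 genes in each of the 6 MEF libraries, on a log axis, with RepB-/- libraries in orange, WT libraries in blue and the group mean as a bar. Prrx1 runs from 235 to 376 CPM and Alx1 from 0.101 to 0.832 CPM, and the genotypes do not overlap for Twist1, Twist2, Prrx1, Msx1, Msx2, Alx1 and Alx4.

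Twist1, which promotes mesenchymal identity and delays bone formation, had 65.2, 67.6 and 57.8 CPM in the RepB-/- libraries and 55.9, 56.3 and 50.0 CPM in WT. The genotypes were separated by little more than 1 CPM, and they overlapped when libraries were scaled by plain totals. The log2 fold change was 0.23 ± 0.09 (SE), with an adjusted p of 0.0431. DESeq2 gave an adjusted p of 0.0541. The call was also lost without RepB-/- replicate 1 (adjusted p = 0.116), RepB-/- replicate 2 (0.169) or WT replicate 3 (0.161), with log2 fold changes between 0.18 and 0.30 over the 6 fits that each left out a library.

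Twist2, the paralog with a role in dermis and in holding back osteoblast differentiation, had 0.612, 2.48 and 0.963 CPM in RepB-/- and 2.57, 3.22 and 3.45 CPM in WT. RepB-/- replicate 2 lay just under the lowest WT library, and the other RepB-/- libraries lay far below. These values rest on 12, 48 and 19 counts in RepB-/- and 32, 52 and 58 in WT. The log2 fold change was -1.19 ± 0.41 (SE), with an adjusted p of 0.0334. It was -1.96 without RepB-/- replicate 2. The call was lost without RepB-/- replicate 1 (log2 fold change -0.84, adjusted p = 0.126), RepB-/- replicate 3 (0.115), WT replicate 2 (0.0698) or WT replicate 3 (0.0988). Gm29100, an antisense gene not analysed here in MEFs, has 1477 exon bases of Twist2 inside its span on the opposite strand, introns included. Whether the counting used strand is not given in the sources used here.

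Twist1 and Twist2 were called in opposite directions with all 6 libraries, but of the fits that each left out a library, only that without WT replicate 1 called both. Twist2 took 0.930% (95% Wilson interval 0.533 to 1.62), 3.54% (2.68 to 4.66) and 1.64% (1.05 to 2.55) of Twist1 plus Twist2 counts in RepB-/-. Its share was 4.39% (3.13 to 6.13), 5.4% (4.14 to 7.01) and 6.44% (5.02 to 8.24) in WT. The genotypes did not overlap, with an exact two-sided permutation p of 0.1, the smallest that 3 against 3 libraries can give (adjusted p = 0.2 over 6 such tests). Intervals cover counting error only.

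Prrx1, a homeodomain factor that marks limb and craniofacial mesenchyme, had 324, 376 and 349 CPM in RepB-/- and 235, 304 and 283 CPM in WT. All RepB-/- libraries lay above all WT libraries. The log2 fold change was 0.35 ± 0.09 (SE), with an adjusted p of 0.00903, the lowest of the 10 genes. The call held in 5 of the 6 fits that each left out a library, and without RepB-/- replicate 2 the adjusted p was 0.0555. Gm20471, another antisense gene not analysed here in MEFs, has 1134 exon bases of Prrx1 inside its span, introns included.

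Prrx2, which overlaps with Prrx1 in limb and skeletal development, had 134, 125 and 125 CPM in RepB-/- and 128, 125 and 125 CPM in WT. RepB-/- replicate 1 was highest and the other libraries overlapped, with a log2 fold change of 0.02 ± 0.07 (SE) and an adjusted p of 0.809. The Prrx2 share of Prrx counts was 26.9% ± 2.18 (SD, n = 3) in RepB-/- and 31.7% ± 3.22 in WT. These shares overlapped (exact permutation p = 0.2, adjusted p = 0.3).

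The genes most like Prrx1 over the 6 MEF libraries were Uba6, Smim10l1 and Cd164. The root mean square difference of their mean-centred log2 CPM from that of Prrx1 was 0.0335, 0.0351 and 0.0358, among 13306 genes. Their log2 fold changes were 0.33, 0.37 and 0.33, which lie near that of Prrx1 because the genes were chosen by likeness over the same libraries.

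Msx1, a homeodomain repressor that holds cells in an undifferentiated state, had 12.6, 9.09 and 11.7 CPM in RepB-/- and 18.4, 15.2 and 13.3 CPM in WT. The highest RepB-/- library lay just below the lowest WT library. Its log2 fold change was -0.48 ± 0.15 (SE), with an adjusted p of 0.0240. The call was lost without RepB-/- replicate 2 (adjusted p = 0.119) or WT replicate 1 (0.0691).

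Msx2, which acts with Msx1 in skull, tooth and skin development, had 1.94, 2.79 and 1.88 CPM in RepB-/- and 4.41, 3.40 and 4.57 CPM in WT. The genotypes did not overlap, and the difference was -0.90 ± 0.26 (SE) on the log2 scale (adjusted p = 0.0133). Adjusted p-values just missed the threshold without RepB-/- replicate 1 (0.0539), RepB-/- replicate 3 (0.0507) or WT replicate 3 (0.0564). Msx2 made up 16.9% ± 5.73 (SD, n = 3) of Msx counts in RepB-/- and 21.1% ± 3.99 in WT, and these shares overlapped (exact permutation p = 0.3, adjusted p = 0.36).

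Alx1, a factor of the frontonasal and periocular mesenchyme, had 3, 2 and 2 counts in RepB-/- and 6, 13 and 14 in WT. The genotypes did not overlap, but all RepB-/- libraries were at or under the floor of 3 counts. The ratio of summed CPM, RepB-/- over WT, was 0.164 (95% counting interval 0.0613 to 0.378). The gene was not tested after the filter. Without the filter its adjusted p was 0.0131, and DESeq2 gave 0.0199, both lower in RepB-/-. It passed the filter in all 6 fits that each left out a library, where a smaller group loosens the filter. In each it was called lower (adjusted p between 0.00209 and 0.0246). It could pass only through its WT libraries, and these fits share libraries, so they are not separate support. Gm17028, on the same strand, has 243 exon bases of Alx1 inside its span, introns included.

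Alx4, which patterns the limb and the skull, had 1.73, 1.96 and 1.82 CPM in RepB-/- and 2.09, 2.47 and 2.50 CPM in WT. The genotypes did not overlap, yet the log2 fold change of -0.36 ± 0.27 (SE) had an adjusted p of 0.321. Ext2, a heparan sulfate polymerase gene with 2473 to 5175 counts in the MEF libraries, lies on the opposite strand. Its span, introns included, holds 6355 exon bases of Alx4. Whether Ext2 reads entered the Alx4 counts is uncertain and was not tested. Non-overlap in either direction was found for 52.2% of all genes tested. Of the 9 tested members, Twist1, Twist2, Prrx1, Msx1, Msx2 and Alx4 did not overlap.

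Osr1, which acts in limb, heart and kidney mesenchyme and in connective tissue fibroblasts, had 38.9, 34.1 and 36.1 CPM in RepB-/- and 25.1, 35.9 and 31.96 CPM in WT. The genotypes overlapped, and WT replicate 1 was lowest. The log2 fold change was 0.23 ± 0.12 (SE), with an adjusted p of 0.139. It passed the threshold without WT replicate 2 (adjusted p = 0.0352) and without the filter on low counts (0.0377).

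Osr2, which acts in palate and joint development, had 3.06, 2.89 and 2.84 CPM in RepB-/- and 5.85, 3.77 and 2.26 CPM in WT. The WT libraries lay on both sides of the narrow RepB-/- group. Its log2 fold change of -0.41 ± 0.30 (SE) had an adjusted p of 0.301. It was -0.04 without WT replicate 1, which held the highest Osr2 share (18.9%), and -0.70 without WT replicate 3 (adjusted p = 0.933 and 0.0634). Osr2 took 7.47% ± 0.309 (SD, n = 3) of Osr counts in RepB-/- and 11.7% ± 6.44 in WT (exact permutation p = 0.4, adjusted p = 0.4).

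**Figure D2:**
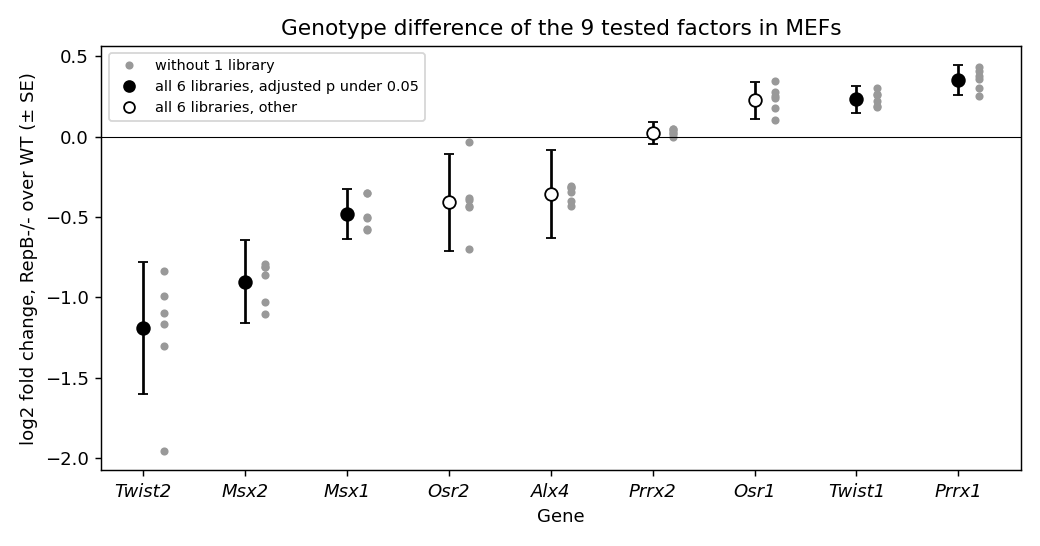
Log2 fold change of RepB-/- over WT with its SE (black, filled where the adjusted p is under 0.05) for the 9 genes tested in MEFs, with grey points for the fits that each left out 1 of the 6 libraries. Twist2 spreads most, from -1.96 to -0.84, and Prrx2 stays between -0.00 and 0.05.

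**Figure D3:**
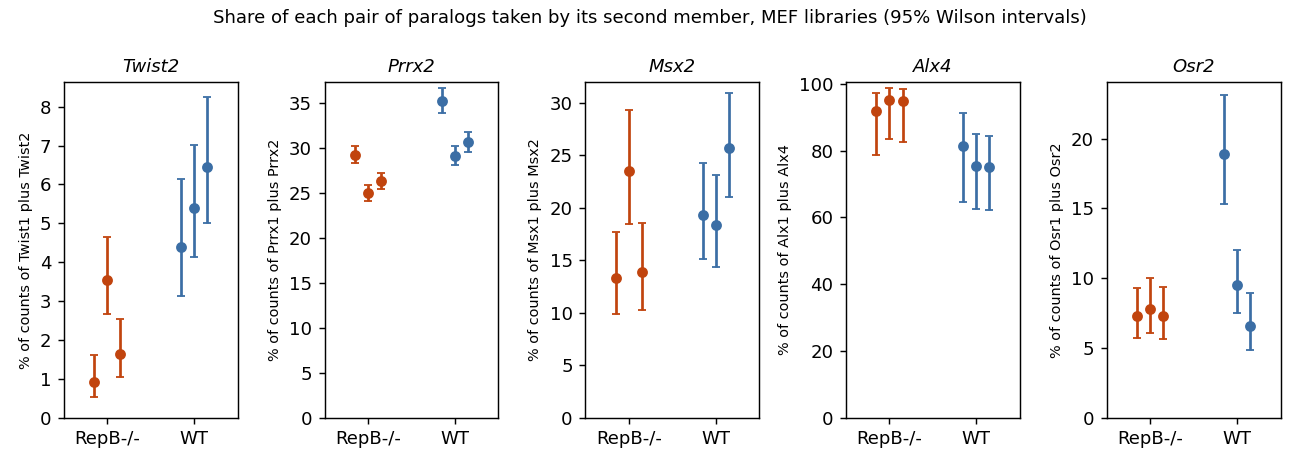
Share of the counts of each pair of paralogs taken by the member named above the panel, in percent, for each MEF library with its 95% Wilson interval, RepB-/- in orange and WT in blue. Twist2 shares lie below 4% in RepB-/- and above 4% in WT, and Alx4 takes 91.9% to 95% of Alx counts in RepB-/- against 75% to 81.3% in WT.

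Summed over the 10 genes, RepB-/- MEFs had 582, 622 and 588 CPM and WT MEFs 478, 550 and 517 CPM. The genotypes did not overlap (exact permutation p = 0.1, adjusted p = 0.2), and Prrx1 was the largest part of each sum. The difference of means was 82.3 CPM, and it was 39.9 CPM with plain library totals, where the lowest RepB-/- library (558 CPM) lay just above the highest WT library (554 CPM). Other markers moved with the genotype in the same libraries. Summed fibroblast markers did not overlap between genotypes (5 of 10 genes called higher and 1 lower). Summed skeletal muscle markers lay at 44.7 to 54.3 CPM in RepB-/- and 112 to 178 in WT (1 of 3 tested genes called lower). Acta1 made up most of both sums, at 40.8 ± 6.20 CPM against 137 ± 33.6 (SD, n = 3), while Myod1 and Myog had log2 fold changes of 0.39 and 0.22 (adjusted p = 0.329 and 0.382). Endothelial markers lay at 11.1 to 12.7 CPM against 24.1 to 28.4 (3 of 3 lower), and mesothelial markers at 4.43 to 5.22 against 6.66 to 12.6 (1 of 1 lower). Neural crest and Schwann cell markers, at 1.63 to 2.79 CPM against 3.69 to 6.12 (1 of 3 lower), lay in the range of the scarce members, and none of these 4 lists held a gene at 0 in all libraries. Hepatocyte markers, at 0.558 to 0.816 CPM in RepB-/- against 1.07 to 2.73 in WT, and erythroid markers, at 0.408 to 0.608 against 1.11 to 1.44, also did not overlap, and none of these trace-level genes was tested. Summed fetal liver, leukocyte, epithelial, adipocyte and stellate cell markers overlapped between genotypes, but each of these lists held called genes. Of tested genes, 1 was higher and 1 lower of 2 for fetal liver, and 1 higher and 2 lower of 4 for leukocyte. The calls were 1 higher and 1 lower of 4 for epithelial, 1 higher and 2 lower of 3 for adipocyte, and 2 lower of 5 for stellate cell. The part of these shifts in the members' differences was not tested. In bulk RNA, fewer cells of a type and less RNA per cell cannot be told apart.

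The related genes moved in both directions. Across 9 lists of partners, inhibitors, other mesenchymal factors, signals and targets, 83 of 101 genes were tested in MEFs, of which 21 were higher and 19 lower in RepB-/-. This was 48.2% of those tested, beside 39.1% of all genes, and the median log2 fold change was -0.08. Some of the lower genes, such as Tcf15, Msx3, Meox1, Lmx1b, Gli1 and Ibsp, passed the filter only through their WT libraries. Their direction followed from how they entered, so the count of lower genes is not read as a result about the lists.

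Among the dimer partners of Twist proteins, Tcf3 was higher, with 84.5, 80.1 and 79.2 CPM in RepB-/- and 70.7, 69.9 and 71.9 CPM in WT. Its log2 fold change was 0.20 ± 0.07 (SE), with an adjusted p of 0.0370. This call held without WT replicate 1 but was lost without any other single library (adjusted p between 0.0546 and 0.123). Tcf4 and Tcf12 overlapped between genotypes, with log2 fold changes of -0.02 and -0.02 (adjusted p = 0.884 and 0.883). Of the 4 Id genes, 3 rose. Id3 rose from 252 ± 30.5 CPM in WT to 369 ± 20.58 CPM in RepB-/- (SD, n = 3, adjusted p = 0.00034), Id1 from 110 ± 16.4 to 143 ± 3.16 CPM (adjusted p = 0.00567) and Id4 from 19.7 ± 4.87 to 30.1 ± 3.24 CPM (adjusted p = 0.00648). Id2 overlapped, at 35.7 ± 2.37 CPM in RepB-/- and 35.7 ± 3.45 in WT. The median log2 fold change of the Id genes was 0.46.

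Of 9 other mesenchymal bHLH genes, 2 passed the filter. Tcf15, a paraxial mesoderm factor, had 0 counts in all RepB-/- libraries and 31, 11 and 16 in WT, which is at least 8.95-fold lower against a floor of 3 counts per library and at least 5.32-fold lower without WT replicate 1. Of 21 tested homeobox genes of the mesenchyme, 4 were higher and 7 lower. Among those lower, Msx3, Meox1 and Lmx1b passed the filter only through their WT libraries, which fixed their direction in advance. The mesoderm factor Meox2 rose from 9.45 ± 2.01 to 24.7 ± 2.62 CPM, while its paralog Meox1 fell from 1.67 ± 0.495 to 0.170 ± 0.0779 CPM (adjusted p = 1.5e-05 and 0.00027). Meox1 had 5, 3 and 2 counts in RepB-/- and 27, 19 and 28 in WT. Its RepB-/- level was near the floor, so the size of its fall is uncertain. Six5 rose from 9.86 ± 0.461 to 16.0 ± 3.27 CPM (adjusted p = 0.0025), and Dlx2, a factor of the branchial arches, fell from 33.0 ± 4.45 to 17.5 ± 1.40 CPM (adjusted p = 5.4e-05). Of the 7 TALE cofactors, only Pbx3 was called, lower at 18.9 ± 1.304 CPM against 22.8 ± 0.490 in WT (adjusted p = 0.0432). It was lost with DESeq2 (adjusted p = 0.101), without the filter (0.114) and without RepB-/- replicate 1 (0.140), RepB-/- replicate 2 (0.154), WT replicate 2 (0.0617) or WT replicate 3 (0.123).

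Of 11 zinc finger and forkhead factors, 3 were higher and 3 lower. The genes that rose were Snai1, Snai2 and Zeb2, which repress epithelial genes. Snai2 rose from 23.9 ± 4.17 to 52.8 ± 4.11 CPM (adjusted p = 1.1e-05) and Snai1 from 92.5 ± 9.61 to 131 ± 11.7 CPM (adjusted p = 0.00068). The genes that fell were forkhead factors, with Foxf2 from 13.5 ± 2.03 to 7.34 ± 1.17 CPM (adjusted p = 0.00082) and Foxd2 from 3.18 ± 1.21 to 1.29 ± 0.292 CPM (adjusted p = 0.00869).

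Of 17 tested BMP, FGF and hedgehog genes, 6 were higher and 5 lower. The BMP receptor gene Bmpr1a rose from 68.5 ± 4.82 to 87.3 ± 2.47 CPM (adjusted p = 0.00263), and Grem1, a secreted BMP antagonist, fell from 337 ± 61.6 to 189 ± 16.0 CPM (adjusted p = 0.00011). The hedgehog effectors diverged, with Gli3 rising from 27.9 ± 3.06 to 38.4 ± 0.499 CPM (adjusted p = 0.00177) and Gli1, a target and activator of the pathway, falling from 1.92 ± 0.319 to 0.137 ± 0.108 CPM (adjusted p = 0.00011). Gli1 had 1, 5 and 2 counts in RepB-/- and 28, 26 and 32 in WT. Its RepB-/- level was near the floor, so the size of its fall is uncertain.

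Of 13 tested skeletal genes, 3 were higher and 2 lower. Alpl, an early osteoblast phosphatase, rose from 14.9 ± 0.994 to 31.1 ± 2.39 CPM (adjusted p = 8e-06). Col2a1, a cartilage collagen, rose to 184, 103 and 42.7 CPM in the RepB-/- libraries against 31.2 ± 6.30 CPM in WT (adjusted p = 0.00134). Ibsp, a bone matrix gene, fell from 1.20 ± 0.222 to 0.1195 ± 0.0596 CPM (adjusted p = 0.00044). It had 3, 3 and 1 counts in RepB-/- and 17, 21 and 16 in WT. All its RepB-/- libraries were at or under the floor of 3 counts, so the size of the fall is uncertain. Runx3 fell from 4.83 ± 2.58 to 2.39 ± 0.741 CPM (adjusted p = 0.0413), with overlapping libraries. The Runx3 call was lost without RepB-/- replicate 1 (adjusted p = 0.0901), RepB-/- replicate 3 (0.142), WT replicate 1 (0.200, log2 fold change -0.53) or WT replicate 3 (0.0652). Of the 5 adhesion and matrix genes, Postn, which encodes periostin, rose from 91.8 ± 23.1 to 265 ± 67.1 CPM (adjusted p = 3.2e-05), and the other 4 did not pass the test.

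**Figure D4:**
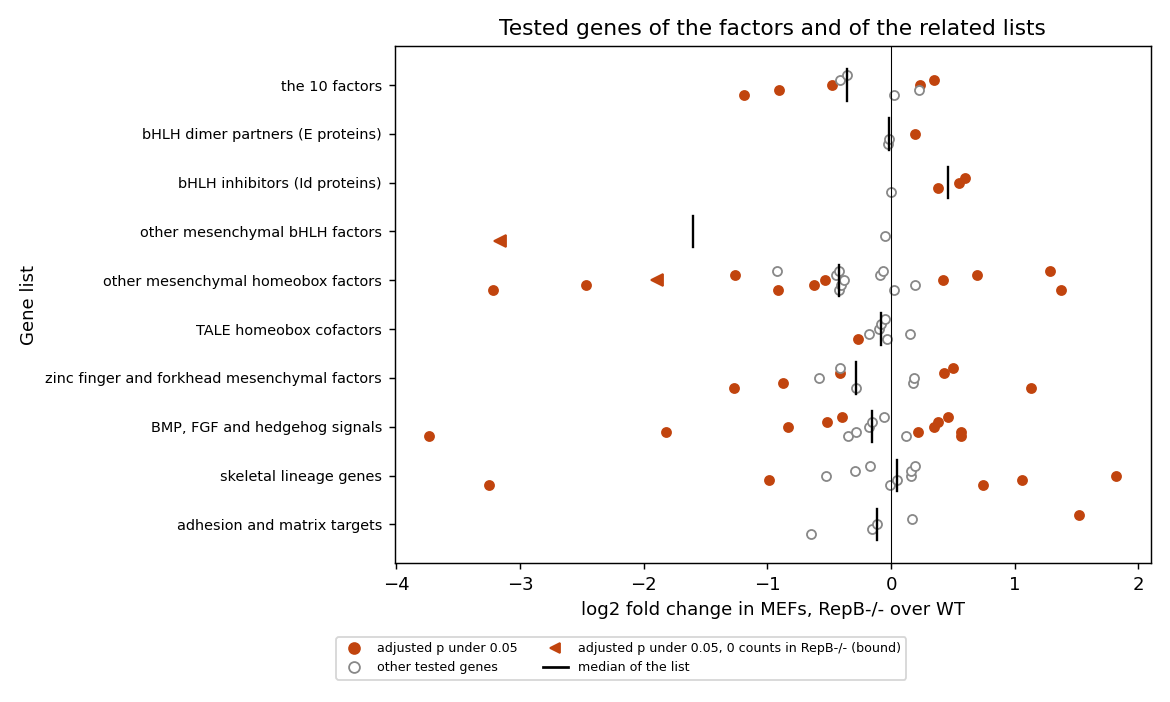
Log2 fold change of RepB-/- over WT in MEFs for the tested genes of the 10 factors and of the 9 related lists, filled where the adjusted p is under 0.05, with the median of each list as a bar and an arrowhead at the bound for genes with 0 counts in RepB-/-. The medians lie at 0.46 for the Id genes, -0.36 for the 10 factors and -0.42 for the other homeobox genes.

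In liver the 10 genes were near the limit of detection, and none was called. Their summed level was 3.28, 1.55 and 0.496 CPM in RepB-/- and 4.77, 1.21 and 1.29 CPM in WT, with the highest library of each genotype being the replicate 1 that carried fetal liver markers. Of 16080 genes tested in liver with edgeR, 0.0373% were called. Of the 10 genes, 2 passed the filter, 0 were called and 0 had an unadjusted p under 0.05. DESeq2 gave adjusted p-values for 5 of them and called 0.

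Twist1 had 33, 27 and 4 counts in RepB-/- liver and 60, 26 and 28 in WT. The genotypes overlapped, with a log2 fold change of -0.98 ± 0.71 (SE) and an adjusted p of 1. Between same-numbered libraries, Twist1 was lower in RepB-/- in 3 of 3, at 0.652 against 1.34 CPM, 0.536 against 0.672 and 0.117 against 0.592. Whether the numbers pair the libraries is not known, and the share of all genes with such a pattern was not computed. The fit with the replicate as a block gave -1.13 ± 0.57 (SE, adjusted p = 0.789). Prrx1 had 79, 27 and 11 counts in RepB-/- and 55, 11 and 25 in WT, with a log2 fold change of 0.25 ± 0.80 (SE) and an adjusted p of 1. Its direction reversed without RepB-/- replicate 1 (-0.65) or WT replicate 2 (-0.11). Between same-numbered libraries Prrx1 was mixed, at 1.56 CPM in RepB-/- against 1.23 in WT, 0.536 against 0.284 and 0.321 against 0.528.

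Twist2 and Osr1 were counted almost entirely in replicate 1. Twist2 had 14, 2 and 2 counts in RepB-/- and 30, 2 and 0 in WT, and Osr1 had 36, 2 and 0 in RepB-/- and 42, 0 and 0 in WT. Msx1 was the only member that was listed in liver without overlap between genotypes, at 4, 2 and 0 counts in RepB-/- and 13, 8 and 8 in WT. It did not pass the filter, its ratio of summed CPM was 0.200 (95% counting interval 0.0680 to 0.491), and 8.05% of the genes tested in liver did not overlap. 

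The remaining members had at most 8 counts in any liver library. Prrx2, Msx2 and Alx4 had 7, 7 and 4 counts in replicate 2 of RepB-/-, in which Y-linked genes were counted, and 0 in the other RepB-/- libraries. WT replicate 1 had 4 counts of Prrx2, 2 of Alx4 and 8 of Osr2. Alx1 had 0 counts in all 6 liver libraries, which allows up to 3 counts per library. Fitted without both replicate 1 libraries, 2 of the 10 genes were tested and 0 were called, and without RepB-/- replicate 2 also 0 were called.

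**Figure D5:**
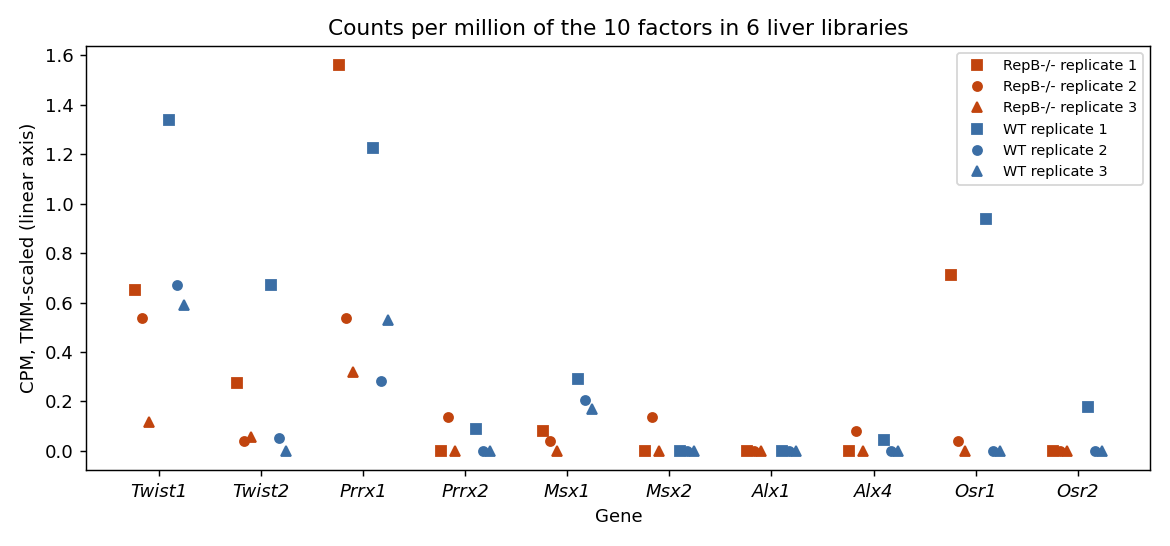
CPM of the 10 genes in each of the 6 liver libraries on a linear axis, RepB-/- in orange and WT in blue, with squares for replicate 1, circles for replicate 2 and triangles for replicate 3. The squares lie highest for Twist1, Twist2, Prrx1 and Osr1 in both genotypes, and no value exceeds 1.56 CPM.

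The genotype effects in MEFs and liver were compared by their interaction in 1 fit of all 12 libraries, in which 0.388% of 15208 genes were called. None of the 10 genes was called, with edgeR or DESeq2. At an unadjusted p under 0.05, edgeR gave 2. Msx1 had a difference in log2 fold change, MEF minus liver, of 1.80 ± 0.67 (SE, adjusted p = 0.254). For Msx2 the adjusted p was 0.278, and no size is given, since all WT liver libraries were at 0 and the only 7 liver counts came from RepB-/- replicate 2.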

How the data were processed

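Gene counts came from 12 RNA-seq libraries, with 3 of each genotype (RepB-/- and WT) from MEFs and 3 of each from liver. The letters B and W of the labels were read as RepB-/- and WT. The 6 other samples of the series were not used here. According to the methods, the authors used Cutadapt for trimming and Hisat2 for alignment of stranded mRNA reads. The submitters' processing notes also name Trim Galore 0.4.1, STAR 2.7.0 and HTSeq 0.12.4 without a role, so the counting tool, its strand setting and the annotation are not given in the sources used here. The deposited tables hold raw counts per gene, with FPKM computed by the authors for MEFs (GRCm39 coordinates) and TPM computed by the authors for liver (GRCm38). The 6 deposited FPKM columns of liver were not used.

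Each tissue was fitted with edgeR 4.0.16 in R 4.3.3 (TMM, filterByExpr, quasi-likelihood test). The p-values of all genes tested were adjusted by the Benjamini-Hochberg procedure, with a threshold of 0.05. SEs were derived from the fold change and the F statistic. CPM used TMM-scaled totals. DESeq2 1.42.0, its size factors, no filter, TMM over autosomes, each library left out, a replicate block and a term for liver replicate 1 were alternatives. Fitting liver replicates 2 and 3 alone was added after seeing the data. Single values were compared by exact two-sided permutation tests in scipy 1.17.1. On simulated counts with a log2 change of 1 in 200 genes, the MEF fit recovered 85.8% of 197 changed genes, and 10.1% of its calls were false. In the MEF data 39.1% of 13306 genes were called, and Twist1, Prrx1 and Msx1 had smaller changes. The simulated rates therefore do not describe the member calls. The liver fit recovered 0% of 195 and the interaction fit 0% of 195, so an absence of calls there says little.

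Deviations from the genotype means correlated between same-numbered libraries at 0.710, 0.361 and 0.365 in liver. Replicate 1 stood apart in both genotypes, which by itself makes the deviations of the other libraries alike. Correlations between libraries of unlike number were not computed, so these values do not show that the numbers pair the liver libraries. In MEFs same-numbered libraries correlated at -0.01, -0.04 and -0.00, which gave no sign of pairing. The members and gene lists were chosen with earlier results of these data known. All 10 members were named, with up to 2 genes per direction and list of lowest adjusted p in MEFs, the E protein and Id genes, and the 3 genes most like the member of lowest adjusted p. Depth was 11540344 to 20587556 counts per MEF library and 37682201 to 51542709 per liver library, with a biological coefficient of variation of 9.06% and 51.2%, respectively.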

Additional observations from a re-analysis of the deposited data

How the results depend on the processing

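In MEFs, 2 members were called higher and 3 lower. DESeq2 called 1 higher and 4 lower, and the fit without a filter on low counts called 3 higher and 4 lower. Leaving out each library in turn gave 0 to 3 members higher and 2 to 3 lower. Alx1 then passed the filter, through its WT libraries only, and was among those lower each time. Of Twist2, Msx1 and Msx2, only 1 stayed called without RepB-/- replicate 1, RepB-/- replicate 3 or WT replicate 3. In the other fits 2 of these genes stayed called. With the replicate block, 2 members were higher and 3 lower in MEFs. In liver 0 were called (Prrx1 log2 fold change 0.19, Twist1 -1.13), and also 0 in the interaction, where Msx1 was at 1.88. The block changed no call among the members, and of the named related genes Tcf3 (adjusted p = 0.0657) and Pbx3 (0.0577) lost theirs. The related lists gave 16 to 22 genes higher and 13 to 20 lower without 1 library. Plain library totals gave a summed level of 574 CPM in RepB-/- MEFs in place of 597 CPM, and 534 in place of 515 CPM in WT, so that the difference fell from 82.3 to 39.9 CPM. Directions reversed only for genes near 0 or at low counts: Prrx2 in MEFs without 1 library (-0.0042 to 0.0462), Prrx1 in liver (-0.65 to 0.99), Tcf4 (-0.14 to 0.10), Tcf12 (-0.0957 to 0.0386) and Id2 (-0.0746 to 0.0596) without 1 library, Tcf4 (0.0174) and Tcf12 (0.0233) without the filter, and Id2 with DESeq2 size factors (-0.0075). The cause was not tested. In liver, 8 of the 10 genes were too low to test.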
